A study of Mus musculus with 4 samples.

Results

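The Hoxa cluster genes Hoxa2, Hoxa3, Hoxa4, Hoxa5, Hoxa6, Hoxa7, Hoxa9, Hoxa10, Hoxa11 and Hoxa13 were followed in embryonic mouse forelimb with and without Shox2. They were taken by gene name from an expression array and put in the order in which they lie in the cluster, so that they make up 10 of the 25206 probe sets, with a single probe set per gene. All were from C57BL/6 embryos at stage E11.5, either wild type or Shox2 knockout (labelled SHOX2-KO), and 2 arrays were hybridised per genotype. Each array held RNA pooled from the forelimbs of 3 to 4 embryos of the same genotype, and the series' design text names 2 pregnancies. The array titles carry the numbers 48 and 50, each once in either genotype; what a number marks is not stated in the labels, nor is the allele that inactivates Shox2. Differences are knockout minus wild type on the log2 scale, with n = 2 pools per genotype throughout. The genotype p-values therefore rest on the spread between pools of a genotype.

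Hox genes encode homeodomain transcription factors, and in each cluster the genes are switched on in the order of their position. Genes at the Hoxa2 end are active early and in anterior tissues of the embryo, and those at the Hoxa13 end late and in posterior or distal tissues. In the limb bud Hoxa10 acts with its paralogues in the upper arm, Hoxa11 with Hoxd11 in the forearm and Hoxa13 with Hoxd13 in the hand plate. Shox2 encodes a homeodomain factor of the proximal limb skeleton.

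Every array gave values from 5.04 to 14.1, and 14095 named genes at or above a mean log2 level of 5.60 were tested. All 10 Hoxa genes passed this filter. Shox2 was lower in the knockout by a log2 difference of -1.24 ± 0.21 (SE), without passing over all genes (limma, adjusted p = 0.322), and with no overlap of the genotypes. Against the tissue label, Tbx5, the T-box gene of the forelimb, and Prrx1, a gene of limb mesenchyme, were both bright, at percentiles 99.6 and 99.8 by mean level. Tbx4, the T-box gene of the hindlimb, stood at percentile 65.2. It was higher in both knockout pools, by 0.54 ± 0.10 (SE; limma, adjusted p = 0.322). The pools also differed in Y-linked RNA: 3 of 3 measured Y-linked genes passed (limma, adjusted p under 0.05), with a median difference of 4.15. The log2 of their summed level was 10.88 to 10.93 in the knockout pools and 6.89 to 6.94 in the wild-type pools. These 3 were the only genes called between the genotypes, 0.0213% of those tested.

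The stretches upstream of 5 of these genes are shown because 4 of them (Hoxa9, Hoxa10, Hoxa11 and Hoxa13) had higher values in both knockout pools, while Hoxa2, at the other end of the cluster, did not. Higher values in both knockout pools were also seen in Hoxa3, Hoxa5 and Hoxa6, whose stretches are not shown, and in 22.1% of all tested genes. Each stretch shown is the 250 bases before a RefSeq start site in the build GRCm38.p6, read 5′ to 3′ along the gene. For Hoxa10, which has 2 start sites, only the stretch of the outer start is shown. It has a GC content of 51.6% and 7 CG dinucleotides, against 59.2% and 20 at the inner start. Capitals mark matches on either strand to the motifs searched, which are given in the following paragraph.
Hoxa2, chr6:52164832-52165081, minus strand: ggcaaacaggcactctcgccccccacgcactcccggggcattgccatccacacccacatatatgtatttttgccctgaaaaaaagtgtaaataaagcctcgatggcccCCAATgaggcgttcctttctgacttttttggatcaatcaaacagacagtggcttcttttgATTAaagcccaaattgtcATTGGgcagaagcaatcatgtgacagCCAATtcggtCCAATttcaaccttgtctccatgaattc
Hoxa9, chr6:52227371-52227620, minus strand: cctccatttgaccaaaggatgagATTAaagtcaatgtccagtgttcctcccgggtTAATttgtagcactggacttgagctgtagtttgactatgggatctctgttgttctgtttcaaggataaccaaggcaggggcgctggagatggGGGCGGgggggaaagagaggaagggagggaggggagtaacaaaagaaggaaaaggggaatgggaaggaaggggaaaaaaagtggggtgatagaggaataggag
Hoxa10, chr6:52240855-52241104, minus strand: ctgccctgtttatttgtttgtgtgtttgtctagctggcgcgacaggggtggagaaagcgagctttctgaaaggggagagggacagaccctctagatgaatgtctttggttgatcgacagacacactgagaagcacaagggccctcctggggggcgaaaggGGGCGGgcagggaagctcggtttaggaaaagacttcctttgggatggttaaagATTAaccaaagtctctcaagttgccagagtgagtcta
Hoxa11, chr6:52245811-52246060, minus strand: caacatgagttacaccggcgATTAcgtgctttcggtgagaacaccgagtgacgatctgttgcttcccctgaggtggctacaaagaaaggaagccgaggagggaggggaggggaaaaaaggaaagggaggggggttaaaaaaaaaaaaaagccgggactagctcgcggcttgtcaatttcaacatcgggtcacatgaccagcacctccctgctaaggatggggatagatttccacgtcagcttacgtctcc
Hoxa13, chr6:52260881-52261130, minus strand: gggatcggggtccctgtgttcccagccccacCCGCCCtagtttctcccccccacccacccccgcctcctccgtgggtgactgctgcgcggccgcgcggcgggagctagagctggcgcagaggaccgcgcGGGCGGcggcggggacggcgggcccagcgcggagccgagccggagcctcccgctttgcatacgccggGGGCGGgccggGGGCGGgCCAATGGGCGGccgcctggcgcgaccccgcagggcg

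The RefSeq table held such windows for 9 of the 10 genes, with 2 start sites for Hoxa10 and none for Hoxa4, making 10 windows. The Hoxa11 window overlaps the RefSeq model of Hoxa11os, a transcript of the other strand, and the single Hoxa10 probe set does not tell its starts apart. The Hoxa9 window overlaps the model Gm52902, and the window of the inner Hoxa10 start lies in the Hoxa10 model. The windows of Hoxa3, Hoxa5 and Hoxa6 overlap that of Hoxaas3, and those of Hoxa5 and Hoxa6 also that of Hoxa3. TAAT, the core of many homeodomain sites, was found in 8 of the 10 windows and in 54.9% of 32841 windows of all genes. Hoxa7 and Hoxa13 were the windows without it. CAATAAA, a sequence preferred by posterior HOX proteins, the palindrome of paired-type homeodomains (TAAT, then any 3 bases, then ATTA) and AGGTCA, the nuclear receptor half-site, were found in 0 of the 10 windows. Among all windows they occurred in 4.21%, 0.463% and 14.0%. TATAAA was found in the window of the inner Hoxa10 start alone, against 12.4% of all windows. GGGCGG and CCAAT, the GC and CCAAT boxes of many promoters, were added after the sequences were seen; GGGCGG can overlap itself in G-rich stretches. GGGCGG stood in 4 of the 10 windows (32.7% of all) and CCAAT in 5 (33.9% of all). The Hoxa13 window held 5 matches to GGGCGG and 1 to CCAAT. It also had a GC content of 80.0% and 35 CG dinucleotides, more than 97.0% of all windows had, whereas the Hoxa9 window had 49.6% and 3. The windows of Hoxa5 and Hoxa6 were also rich, with 28 and 24 CG dinucleotides, more than 92.4% and 88.0% of all windows had. These matches describe letters only, and no binding was measured.

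Between the genotypes, 8 of the 10 Hoxa genes had higher mean values in the knockout, and the 4 genes from Hoxa9 to Hoxa13 had each knockout pool above each wild-type pool. The median difference of the 10 genes was 0.28, against -0.00098 over all tested genes. In the fit by genotype alone, no Hoxa gene passed after adjustment over all genes (limma, smallest adjusted p = 0.322). With the array number as a block, Hoxa13 and Hoxa10 were called (limma, adjusted p = 0.00122 and 0.0460), among 382 genes in all. The labels do not state that a number pairs arrays, and the block leaves 1 residual degree of freedom. With an unadjusted p under 0.05, 5 Hoxa genes were higher, where 5.19% of all tested genes were higher by that rule, and 0 were lower, where 5% were. The genotypes did not overlap, with the knockout higher, in 7 Hoxa genes (22.1% of all tested genes), and with the knockout lower in 1, Hoxa4 (19.9% of all tested genes). The genes of a cluster share regulation and the same 4 arrays, so they are not independent of each other.

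**Figure D1:**
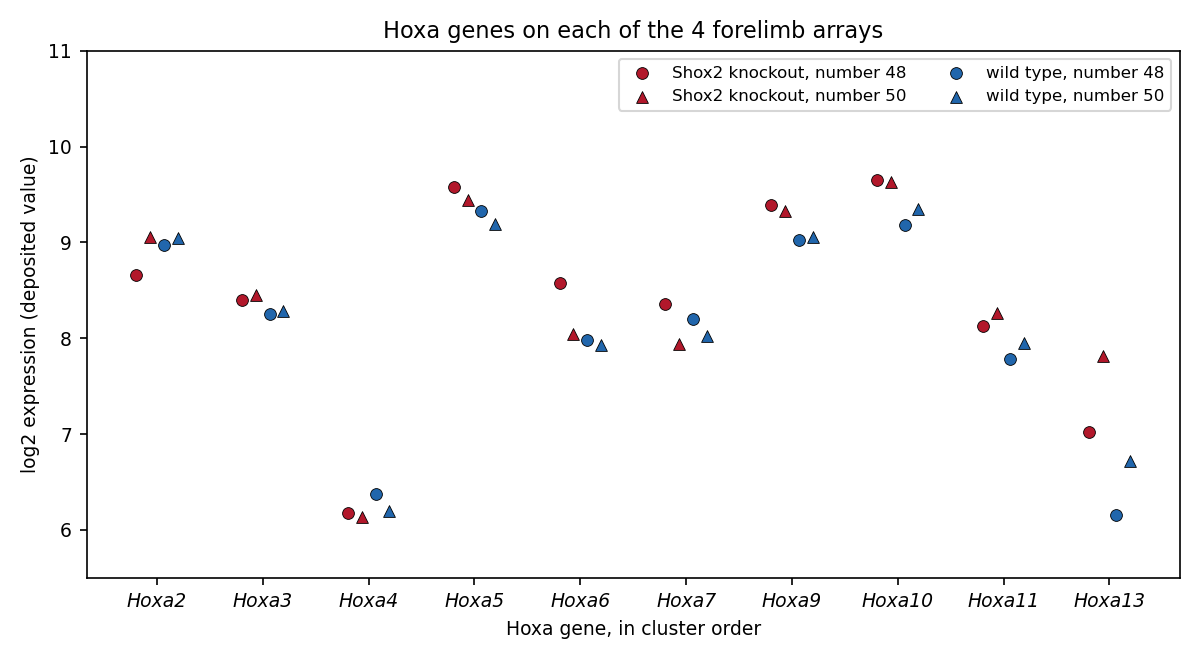
Log2 expression (vertical axis) of the 10 Hoxa genes in cluster order (horizontal axis), with 1 point per array; red marks Shox2 knockout, blue wild type, circles number 48 and triangles number 50. For Hoxa3, Hoxa5, Hoxa6, Hoxa9, Hoxa10, Hoxa11 and Hoxa13 both red points lie above both blue points.

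Along the cluster the differences tended to be larger towards the Hoxa13 end. From Hoxa2 to Hoxa7 the median difference was 0.098, and 3 of 6 genes were higher and 1 lower without overlap, rules met by 22.1% and 19.9% of all tested genes. From Hoxa9 to Hoxa13 the median was 0.35. Spearman's rho between cluster order and the difference was 0.82 across the 10 genes, 0.81 with the arrays numbered 48 alone and 0.73 with the arrays numbered 50 alone. These coefficients describe genes measured on the same arrays. The genotype difference had the same sign on both numbers in 8 of 10 genes, the exceptions being Hoxa2 and Hoxa7.

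**Figure D2:**
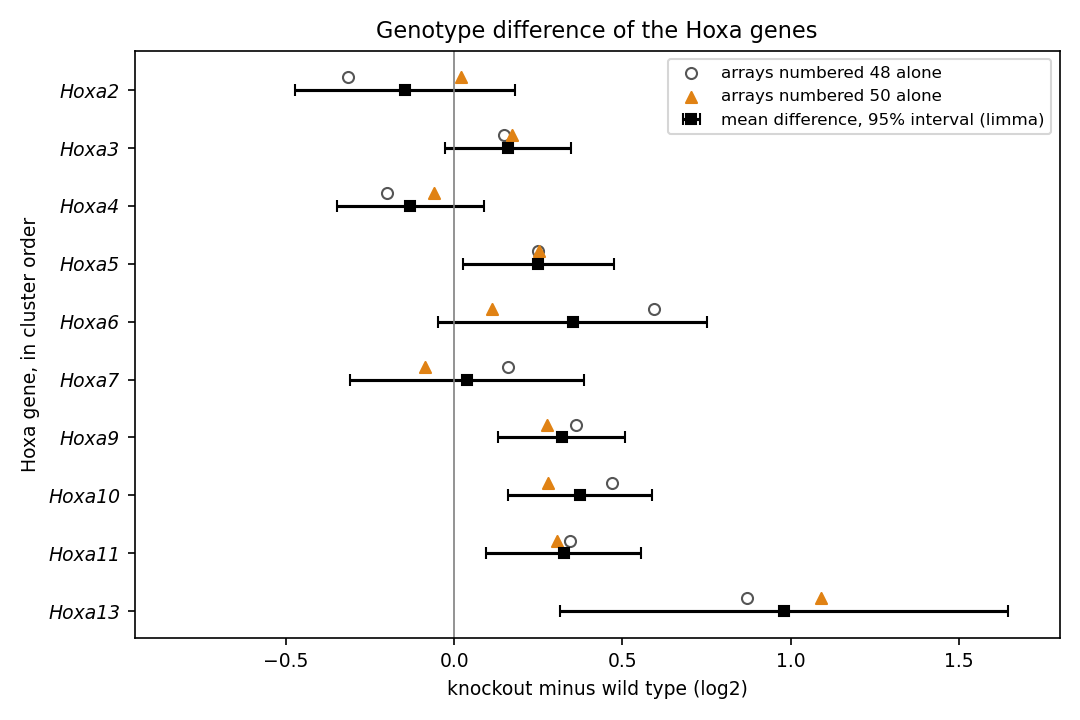
Knockout minus wild type (log2, horizontal axis) for each Hoxa gene in cluster order. Squares are mean differences with the 95% interval of the limma fit over 4 arrays; circles and triangles are the differences on number 48 alone and on number 50 alone. The intervals of Hoxa5, Hoxa9, Hoxa10, Hoxa11 and Hoxa13 lie above 0 before any adjustment for the number of genes.

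In what follows the value on number 48 comes before that on number 50. Hoxa2, which patterns the hindbrain and the second pharyngeal arch, read 8.66 and 9.06 in knockout pools and 8.97 and 9.04 in wild-type ones. Knockout array 48 was the low one and the other 3 arrays lay close together, so the genotypes overlapped. The difference was -0.15 ± 0.14 (SE; limma, adjusted p = 0.763), and became 0.055 once knockout array 48 was left out and -0.35 without knockout array 50. Hoxa3, a gene of the thymus, parathyroid and neck, read 8.40 and 8.45 in knockout pools, against 8.26 and 8.28 in wild-type pools. Its groups were tight and separate, and the difference of 0.16 ± 0.078 (SE) was nearly the same on both numbers, 0.15 and 0.17 (limma, adjusted p = 0.544). The RefSeq model of Hoxa3 spans those of Hoxa4, Hoxa5 and Hoxa6, so RNA from its longest form cannot be told from theirs by position alone.

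Hoxa4, a gene of the cervical vertebrae, had a mean level of 6.22 at percentile 55.9 of all probe sets. It read 6.17 and 6.13 in knockout pools and 6.37 and 6.19 in wild-type ones. Hoxa4 was the only Hoxa gene here with both knockout pools below both wild-type pools, by -0.13 ± 0.092 (SE; limma, adjusted p = 0.671), and wild-type array 50 lay close to both knockout arrays. The difference was -0.041 without wild-type array 48 and -0.22 without wild-type array 50.

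Hoxa5, which acts in the lung and, with its paralogues, in the anterior forelimb, read 9.58 and 9.44 in knockout pools, against 9.33 and 9.19 in wild-type pools. Its genotypes did not overlap, and the difference was 0.25 on each number, 0.25 ± 0.094 (SE) in all (limma, unadjusted p = 0.0340, adjusted p = 0.446). Hoxa6, a gene of the thoracic skeleton, read 8.58 and 8.04 in knockout pools and 7.98 and 7.93 in wild-type ones. The groups were separate, but knockout array 48 alone stood high: the difference was 0.59 on number 48 and 0.11 on number 50. Over all arrays it was 0.35 ± 0.17 (SE; limma, adjusted p = 0.532), and leaving out knockout array 48 gave 0.084 and knockout array 50 gave 0.62. Hoxa7, also a gene of the thoracic skeleton, read 8.36 and 7.94 in knockout pools, against 8.20 and 8.03 in wild-type pools. The knockout arrays were the highest and the lowest of the 4, and the difference was 0.037 ± 0.15 (SE; limma, adjusted p = 0.951), turning to -0.17 without knockout array 48 and -0.048 without wild-type array 50, and reaching 0.25 without knockout array 50 and 0.12 without wild-type array 48.

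Hoxa9, which with its paralogues takes part in setting up the posterior limb margin, read 9.39 and 9.33 in knockout pools and 9.03 and 9.05 in wild-type ones. Each genotype varied little (SD 0.044 and 0.018), and the groups were separate by more than that spread. The difference was 0.32 ± 0.079 (SE; limma, unadjusted p = 0.00552, adjusted p = 0.322). Hoxa10, the gene of the upper arm, read 9.65 and 9.63 in knockout pools, against 9.19 and 9.35 in wild-type pools. Both knockout values stood above both wild-type values, with a difference of 0.37 ± 0.089 (SE), and its unadjusted p was the smallest of the 10 genes (limma, 0.00460; adjusted p = 0.322). The Hoxa10 difference was 0.47 on number 48 and 0.28 on number 50.

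Hoxa11, the gene of the forearm, read 8.13 and 8.26 in knockout pools and 7.79 and 7.95 in wild-type ones. The genotypes were separate and the difference of 0.33 ± 0.096 (SE) was 0.35 and 0.31 on the numbers 48 and 50 (limma, unadjusted p = 0.0127, adjusted p = 0.381). Hoxa13, the gene of the hand plate, read 7.02 and 7.81 in knockout pools, against 6.15 and 6.72 in wild-type pools. Number 50 was the higher within each genotype, and the groups did not overlap, since the lower knockout array stood above the higher wild-type array. The difference of 0.98 ± 0.28 (SE), a 1.97-fold higher level, ranked at place 9 by size among the 14095 tested genes and at place 398 by unadjusted p (limma, unadjusted p = 0.0106, adjusted p = 0.376). On number 48 it was 0.87 and on number 50 it was 1.09, and it dropped to 0.59 when knockout array 50 was left out. The 95% interval of Hoxa13 ran from 0.31 to 1.65 and overlapped those of Hoxa9 (0.13 to 0.51), Hoxa10 (0.16 to 0.59) and Hoxa11 (0.096 to 0.56); the gap between these differences was not tested.

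The arrays were also compared by number, in a fit without genotype. The spread within a number thus includes the genotype difference, so these p-values do not measure the spread between pools alone. Between number 50 and number 48, 5 of the 10 genes were higher and 5 lower, with a median of 0.0088 (0.0056 over all tested genes). No Hoxa gene passed (limma, smallest adjusted p = 0.703), and 0% of all tested genes did. Hoxa7 alone had an unadjusted p under 0.05 and was lower on number 50, a rule met by 4.03% of all tested genes. No Hoxa gene was higher by that rule, which 2.84% of all tested genes met. The numbers did not overlap in Hoxa2, which was higher on number 50 (18.3% of all tested genes), and in Hoxa7, which was lower (18.6% of all tested genes).

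**Figure D3:**
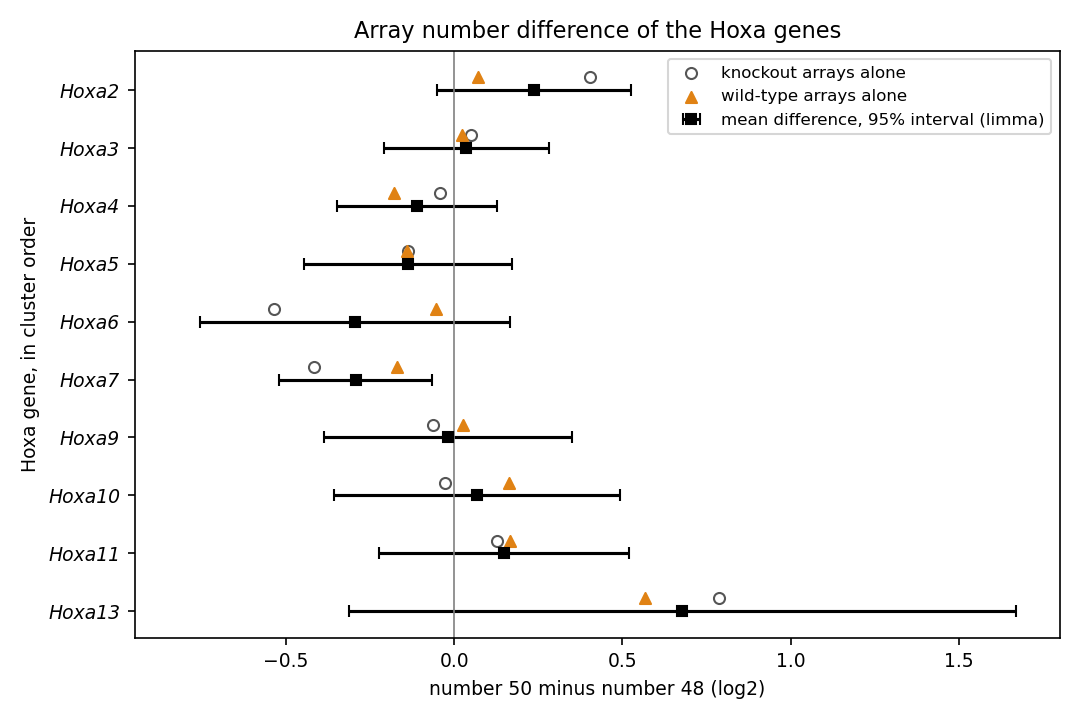
Number 50 minus number 48 (log2, horizontal axis) for each Hoxa gene in cluster order. Squares are mean differences with the 95% interval of the limma fit; circles and triangles are the knockout arrays alone and the wild-type arrays alone. The interval of Hoxa7 lies below 0, and Hoxa13 has the largest difference and the widest interval.

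Hoxa13 was higher on number 50 by 0.79 in the knockout and by 0.57 in the wild type, 0.68 ± 0.41 (SE) in all (limma, adjusted p = 0.784). With an array left out, a fit without genotype mixes part of the genotype difference into this value. It was then 0.13 without knockout array 50 and 0.24 without wild-type array 48. Without knockout array 48 it was 1.11, and without wild-type array 50 it was 1.22. Hoxa7 was lower on number 50 by -0.42 in the knockout, against -0.17 in wild type, -0.29 ± 0.093 (SE) in all (limma, unadjusted p = 0.0192). For Hoxa6 the mean difference was as large, -0.29 ± 0.19 (SE), but it was -0.54 in the knockout, against -0.054 in wild type. Hoxa2 was higher on number 50 by 0.40 in the knockout, against 0.070 in wild type. Hoxa9 and Hoxa10 had number differences of opposite sign in the knockout (-0.062 and -0.027) and the wild type (0.025 and 0.16). In 8 of 10 genes the genotype difference was larger in size than the number difference; Hoxa2 and Hoxa7 were the exceptions. Spearman's rho between cluster order and the number difference was 0.27 across the 10 genes.

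Transcripts next to the Hoxa genes were taken from a list of 15 cluster and flanking genes, of which 10 were measured by name and 8 tested. Of these 4 were higher and 4 lower in the knockout, with a median of -0.0046. At an unadjusted p under 0.05, 2 were higher (5.19% of all tested genes) and 0 lower (5% of all tested genes). None, 0 of them, passed (limma, smallest adjusted p = 0.415). Hoxa11os, the non-coding transcript antisense to Hoxa11 that marks the distal limb, read 8.75 and 9.31 in knockout pools and 7.69 and 8.60 in wild-type ones. Both knockout values were above both wild-type values, and within each genotype number 50 was the higher. The difference was 0.88 ± 0.31 (SE; limma, unadjusted p = 0.0248, adjusted p = 0.415), 1.06 on number 48 and 0.71 on number 50. Its model overlaps that of Hoxa11 by 568 bases, and no source used here says whether the probes tell the strands apart. The other gene at an unadjusted p under 0.05 was Jazf1, a flanking zinc finger gene, at 0.27 ± 0.10 (SE; limma, adjusted p = 0.448). Hoxaas3, antisense to Hoxa5 and Hoxa6 and named after its values were seen, differed by 0.21 ± 0.091 (SE; limma, adjusted p = 0.501). Evx1, the homeobox gene beyond Hoxa13, and its antisense partner Evx1os were too dim to be tested. Skap2, which flanks the other end of the cluster, was lower in both knockout pools, by -0.30 ± 0.13 (SE; limma, adjusted p = 0.513).

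**Figure D4:**
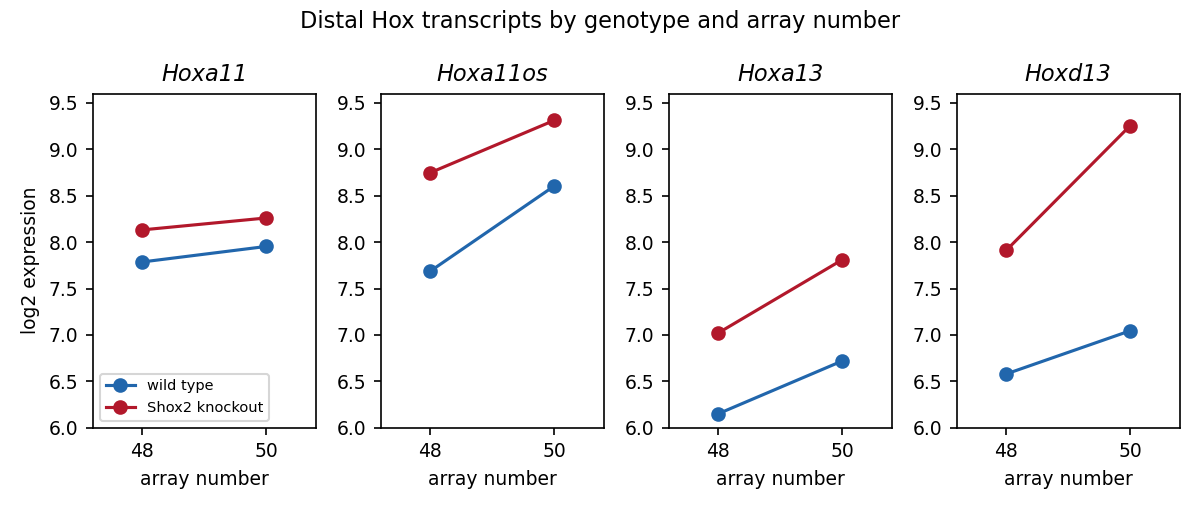
Log2 expression (vertical axis, same scale in each panel) of Hoxa11, Hoxa11os, Hoxa13 and Hoxd13 against array number; red is Shox2 knockout, blue wild type, and each point is 1 array. In each panel the knockout lies above the wild type on both numbers, and both lines climb from number 48 to number 50.

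Hox paralogues, the genes of the other clusters with the same number, were set beside the Hoxa genes. Of 21 such paralogues measured, 16 were tested. At the posterior end they stood on the same side as the Hoxa genes: 5 of 6 tested paralogues of groups 9 to 13 were higher in the knockout. Hoxd10 differed by 0.44 ± 0.099 (SE) beside 0.37 for Hoxa10, and Hoxd11 by 0.45 ± 0.11 beside 0.33 for Hoxa11. In the hand plate group Hoxd13 differed by 1.77 ± 0.40 and Hoxc13 by 0.27 ± 0.12, beside 0.98 for Hoxa13. Hoxb9, at -0.14, was the paralogue on the other side, against 0.32 for Hoxa9 and 0.13 for Hoxd9. In groups 2 to 6, 8 of 10 tested paralogues were lower. In groups 5 and 6 each tested paralogue stood opposite to the Hoxa gene. Hoxb5 and Hoxc5 differed by -0.31 ± 0.16 and -0.22 ± 0.13 where Hoxa5 stood at 0.25, and Hoxb6 and Hoxc6 by -0.27 ± 0.084 and -0.13 ± 0.081 where Hoxa6 stood at 0.35. Groups 3 and 4 were mixed. Hoxb3 was at -0.14 ± 0.11, opposite to Hoxa3 at 0.16, and Hoxd3 at 0.12 ± 0.14. Hoxb4 was at -0.36 ± 0.097 and Hoxd4 at -0.045 ± 0.083, on the side of Hoxa4 at -0.13, and Hoxc4 at 0.097 ± 0.12 opposite to it. Hoxb4 read 5.36 and 5.57 in knockout pools, both below the filter level of 5.60, and 5.84 and 5.80 in wild-type pools. It was tested only through the wild type, so its direction, counted among the lower paralogues above, adds no support. None of the paralogues passed over all genes (limma, smallest adjusted p = 0.322), and no difference between paralogues was tested. Over the whole list of 28 Hox genes of the other clusters 20 were tested, 9 higher and 11 lower. At an unadjusted p under 0.05, 4 were higher (5.19% of all tested genes) and 2 lower, Hoxb4 among them (5% of all tested genes). Among these the smallest unadjusted p was that of Hoxd12, another gene of the distal limb, at 0.57 ± 0.090 (limma, adjusted p = 0.322).

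**Figure D5:**
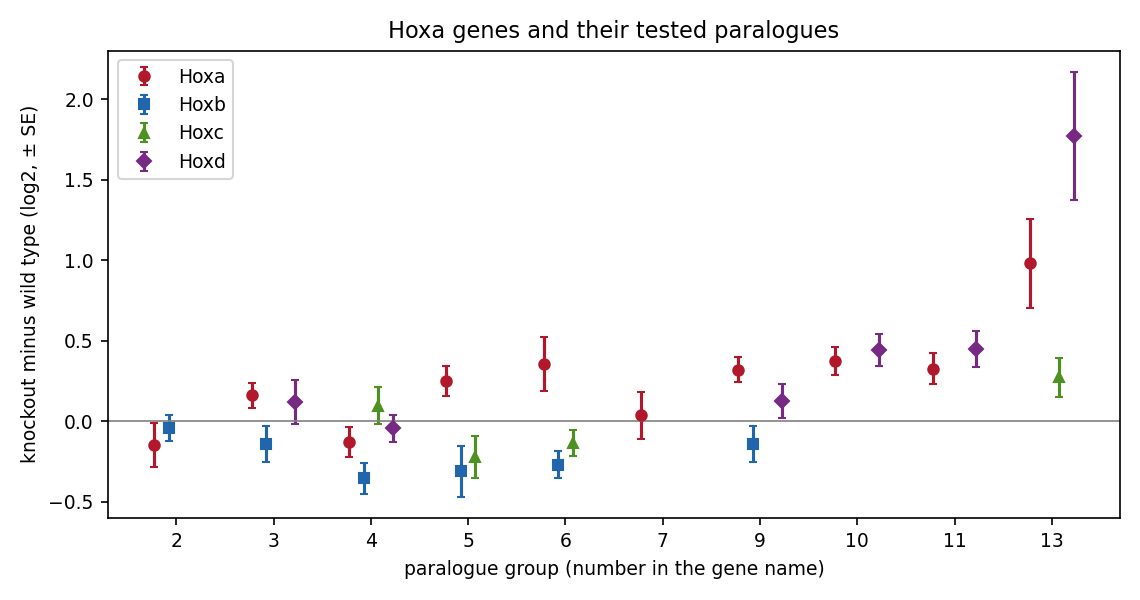
Knockout minus wild type (log2, vertical axis; bars are the SE of the limma fit) for the Hoxa genes and their tested paralogues, by paralogue group (horizontal axis). In groups 5 and 6 the Hoxa genes lie above 0 and the Hoxb and Hoxc genes below it, and in group 13 Hoxa13 and Hoxd13 stand highest.

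Genes with profiles most like those of Hoxa13 and Hoxa11 were ranked by Euclidean distance over the 4 arrays, after each gene was centred on its own mean. The nearest to Hoxa13 were Rps7 (distance 0.19), Hsd3b6 (0.31), Hoxa11os (0.31), Npm1 (0.39) and Gm6098 (0.40), where the median over all tested genes was 1.21. Hoxa11os, a cluster transcript, was thus among the 5 nearest of all tested genes, while Hoxd13 stood at place 312 with a distance of 0.89. Rps7 and Npm1, genes of the ribosome and the nucleolus, have many near-identical copies elsewhere, which makes these probe sets uncertain. The nearest to Hoxa11 were Lrfn4, an immunoglobulin kappa segment, Tpi1, Gm5424 and H1f3, at 0.0084 to 0.027, with a median of 0.39 over all tested genes. Hoxa11 varied little over the arrays, so many genes came close to it, and its paralogue Hoxd11 stood at place 6355. With 4 arrays these distances only describe the pools.

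Regulators and partners of the Hoxa genes were described by lists drawn from background knowledge, and in none of them did a gene pass (limma, smallest adjusted p = 0.322). Over all tested genes, 5.19% were higher and 5% lower at an unadjusted p under 0.05. Of 8 tested HOX cofactors, the TALE homeodomain proteins that bind DNA with HOX proteins, 3 were higher and 5 lower, with a median of -0.075. Pknox2 alone had an unadjusted p under 0.05, at 0.26 ± 0.085 (SE), and Pbx4 followed at 0.19 ± 0.084. The 18 tested Polycomb and trithorax genes, whose products keep Hox genes silent or active, had a median of 0.038 and 0 genes at an unadjusted p under 0.05. Phc2 differed by 0.21 ± 0.10 and Jarid2 by -0.14 ± 0.081. Among 16 tested genes of signals that act on limb Hoxa expression, 11 were higher and 5 lower, with a median of 0.11. Shh, counted among the higher ones, passed the level filter only through the knockout pools. Those at an unadjusted p under 0.05 were the retinol dehydrogenase gene Rdh10 at -0.60 ± 0.082, Cyp26b1, which degrades retinoic acid, at 0.56 ± 0.12, the receptor gene Rarg at 0.27 ± 0.083 and the distal WNT ligand gene Wnt5a at 0.25 ± 0.087.

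Genes placed downstream of HOXA11 or HOXA13 by background knowledge were mostly higher in the knockout: 12 of 13 tested genes, with a median of 0.12. Of all 14095 tested genes, 6984 were higher. Shh, counted among the higher ones, read 5.65 and 5.77 in knockout pools and 5.47 and 5.59 in wild-type pools. Both wild-type values lay below the filter level of 5.60, so Shh passed only through the knockout and its direction adds no support. At an unadjusted p under 0.05, 5 were higher (5.19% of all tested genes) and 0 lower (5% of all tested genes), and 0 passed. Shh, Fgf10 and Aldh1a2 are also on the list of signals above, and Hand2 is also among the mesenchyme markers below. Gdf5, a morphogen of joints and digits, differed by 0.76 ± 0.13 (SE), Sall1, a zinc finger gene of distal mesenchyme, by 0.90 ± 0.17, the ephrin receptor gene Epha7 by 0.47 ± 0.090 and Hand2, of the posterior limb, by 0.41 ± 0.10 (limma, adjusted p = 0.322 each). The ligand genes Bmp2 and Bmp7 differed by 0.12 ± 0.092 and 0.089 ± 0.095. Gdf5, Sall1, Epha7 and Hand2 were higher in the knockout on both numbers. They were named for the smallest p from these same values, which favours such agreement, so it adds no support.

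Markers of limb mesenchyme stood higher in the same pools as the posterior Hoxa genes. Of 10 tested mesenchyme markers 10 were higher in the knockout, with a median of 0.26. At an unadjusted p under 0.05, 6 of them were higher, where 5.19% of all tested genes were. The log2 of their summed level was 14.01 to 14.15 in the knockout and 13.94 in both wild-type pools. Endothelial markers were lower in 8 of 10, with a median of -0.20 and summed levels of 12.37 to 12.43 in the knockout, against 12.53 to 12.56 in wild type. Erythroid markers were lower in 8 of 10, with a median of -0.11 and summed levels of 13.81 in both knockout pools and 13.83 to 13.96 in the wild type. At an unadjusted p under 0.05, 4 endothelial and 3 erythroid markers were lower, where 5% of all tested genes were, and 0 of either were higher. Ectoderm and apical ridge markers were higher in 7 of 8 tested, with a median of 0.10. At an unadjusted p under 0.05, 2 of them were higher and 1 lower. Fgf8 and Sp8 were too dim to be tested. The summed levels, over all 10 measured and so with Fgf8 and Sp8, were 10.81 to 10.93 in the knockout, against 10.67 to 10.78 in wild type. Muscle (median 0.010, 5 of 10 higher), cartilage (-0.040, 3 of 10), neuronal and glial (-0.011, 2 of 5) and macrophage markers (-0.063, 3 of 8) had smaller medians. Matn1, among the lower cartilage markers, passed the level filter only through the wild-type pools. On an array no marker is at 0. The part of these markers in the Hoxa differences was not tested. Y-linked RNA was high in both knockout pools and low in both wild-type pools, so its part cannot be told apart from that of genotype. In pooled tissue, fewer cells of a type and less RNA per cell cannot be told apart.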

How the data were processed

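RNA was extracted with TRIzol from pooled forelimbs and labelled as biotinylated cRNA, per the labels' protocols. The authors deposited 1 table of log2 values for 4 arrays; the log2 scale was read from their range. Its sorted values agreed between arrays within 0.00171, as after quantile normalization, which hides any change common to most genes. No source used here gives the array's summarisation. Of 25206 probe sets, 23185 had a gene name and 2021 none, which are unnamed here; no symbol was shared. Named genes with a mean at or above percentile 40 were tested with limma 3.58.1 (lmFit and eBayes, R 4.3.3), by genotype and, separately, by array number, with Benjamini-Hochberg adjustment over 14095 genes and a threshold of 0.05. The procedure was tested on simulated data. The number of arrays limits the precision.

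The Hoxa genes and all gene lists were chosen with earlier results of these data known. From each list of regulators or partners up to 4 genes at an unadjusted p under 0.05 were named, or else the 2 with the smallest p. Bmp2, Bmp7, Skap2, Evx1, Hoxaas3, Mira, Epha3, Tbx4 and paralogues by group were named after their values were seen. Start site sequences came from RefSeq (GRCm38.p6). Alternatives were other filters, normalizations and variance models, unnamed probe sets, a block, and each array left out.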

Additional observations from a re-analysis of the deposited data

Results flagged for a closer look

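Among the 10 Hoxa genes, 2 had genotype differences of opposite sign on the 2 array numbers, which rests on 1 array per genotype and number and was not tested. Hoxa2 differed by -0.315 (log2, knockout minus wild type) on number 48 and by 0.0195 on number 50. Hoxa7 differed by 0.161 on number 48 and by -0.0859 on number 50.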

How the results depend on the processing

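No Hoxa gene was called between the genotypes with any array left out (0 in each of these fits), nor under the other filters, normalizations and variance models. With the array number as a replicate block, 2 were called, Hoxa13 (limma, adjusted p = 0.00122) and Hoxa10 (limma, adjusted p = 0.0460), among 382 genes in all against 3 without it; with an array left out 4 to 5 genes were called. Same-numbered arrays deviated together (r = 0.39 across genes), but nothing in the labels states that a number pairs them, and the block leaves 1 residual degree of freedom. With the genotype as a block, 1 Hoxa gene, Hoxa13 (limma, adjusted p = 0.00641), was called between the numbers, with 141 genes called in all, and 4 Hoxa genes had an unadjusted p under 0.05, as did 15.5% of all tested genes; an intensity trend called 10 genes, and leaving out an array 0 to 2. Hoxa genes at an unadjusted p under 0.05, a count followed after the data were seen, numbered 4 to 6 between the genotypes (5.97% to 10.1% of all tested genes) and 0 to 3 between the numbers (3.95% to 7.36%) with an array left out. The median genotype difference of the Hoxa genes then ran from 0.18, without knockout array 48, to 0.29. Signs turned with an array left out in the genotype difference of Hoxa2 (-0.35 to 0.055) and Hoxa7 (-0.17 to 0.25). With an array left out the number difference turned or moved by over 1.5 times in 9 of 10 Hoxa genes, Hoxa7 being the exception. These fits hold no genotype term, so an array left out mixes the genotype difference into the number difference. Hoxa13 ran from 0.13 to 1.22. The number difference turned in Hoxa3 (-0.050 to 0.12), Hoxa6 (-0.59 to 0.0020), Hoxa9 (-0.20 to 0.16), Hoxa10 (-0.17 to 0.30) and Hoxa11 (-0.025 to 0.32). Within each genotype Hoxa3, Hoxa11 and Hoxa13 were nevertheless higher on number 50, and Hoxa6 lower. Hoxa4 was too dim to be tested at percentile 60. Any further cause of these changes was not tested.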

Other observations

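On numbers 48 and 50, in that order, Mira, a non-coding transcript of the interval between Hoxa6 and Hoxa7, read 7.88 and 7.28 in knockout pools, against 7.95 and 7.48 in wild-type pools. It was lower on number 50 in both genotypes, by -0.53 ± 0.098 (log2, SE, n = 2 pools per number), like Hoxa7 but with a smaller unadjusted p (limma, 0.0015; adjusted p = 0.501), while its genotypes overlapped (difference -0.13 ± 0.22). Epha3, an ephrin receptor gene of the list placed downstream of HOXA11 or HOXA13, was higher on number 50 by 0.51 ± 0.080 (limma, adjusted p = 0.441) and differed by 0.014 between the genotypes. Both genes were singled out after their values were seen.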
